A study of Homo sapiens with 6 samples.

Results

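The genes described here are 10 subunits of the complexes cohesin and condensin, chosen by name out of 58825 genes in a table of read counts. They are SMC1A, SMC3, RAD21, STAG1 and STAG2 of cohesin, and SMC2, SMC4, NCAPD2, NCAPG and NCAPH of condensin I. All 10 were found through their Ensembl IDs in GENCODE version 44. RNA was sequenced from HGC-27, a cell line of human gastric cancer, in 3 libraries with GC0643 overexpression and 3 libraries with vector control. GC0643 is a gene predicted from sequence that the human reference genome lacks, and the study asked what its overexpression does to gastric cancer cells. Both groups were grown in RPMI-1640 with fetal bovine serum. Stable GC0643 lines were made by retroviral infection and puromycin selection, and whether a line was 1 clone is not stated in the sources used here. Reads of GC0643 were not analysed here, and the labels have no check from them. The labels name separate replicates but not separate cultures, so p-values measure only the spread between these libraries, which may be technical.

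Cohesin is a ring of the ATPases SMC1A and SMC3, closed by RAD21 and carrying either STAG1 or STAG2. It holds sister chromatids together from replication to anaphase and folds interphase chromatin into loops. Condensin is a ring of the same kind built on SMC2 and SMC4. In condensin I this pair joins the kleisin NCAPH and the HEAT-repeat subunits NCAPD2 and NCAPG, and in condensin II it joins NCAPH2, NCAPD3 and NCAPG2. Both condensins compact chromosomes in mitosis. STAG2 is known for inactivating mutations in several cancers.

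Total counts lay between 20376722 and 24069166 per library. The 10 subunits were read at depth, from 341 counts for SMC3 in its lowest library to 17507 for RAD21 in its highest. The level of a gene in a library, relative to the mean of all libraries, went with its GC content across genes. Spearman's rho was between −0.52 and −0.28 in the GC0643 libraries. It was 0.54 and 0.58 in vector control replicates 1 and 3 but −0.25 in vector control replicate 2, which stands with the GC0643 libraries. In a chi-square comparison of counts, the closest of all pairs was GC0643 replicate 2 with vector control replicate 2 (4.69 per gene), which carry different labels. Vector control replicate 2 was also nearer to GC0643 replicate 3 (5.04) than to vector control replicates 1 (12.9) and 3 (45.1). Values are given as counted and after a correction for GC content. Of 9 gastric and epithelial markers, only KRT8 reached 10 counts in every library (83 to 159), and EPCAM, CDH1 and CLDN18 reached at most 14. VIM (62149 to 74279 counts) and COL1A1 (30392 to 43621) were high in all 6 libraries, while PTPRC reached 7 counts and PECAM1 and HBB were at 0 counts. The defining epithelial markers of the labelled tissue were thus close to absent. The 9 gastric and epithelial markers summed to 4.48 to 9.02 CPM (read counts scaled to library size) with GC0643 overexpression and to 6.24 to 7.28 CPM with vector control. KRT8, at means of 6.22 and 5.83 CPM, made up most of these sums, while MUC5AC, TFF1 and GKN1 reached at most 1 count. The part of these markers in the results below was not tested.

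All 10 subunits had a higher mean in the GC0643 libraries than in the vector libraries, and a positive log2 fold change was found in 51.9% of all genes tested. The log2 fold changes ran from 0.14 for NCAPD2 to 0.51 for NCAPG. Of the 10 subunits, 6 were higher at an unadjusted p under 0.05 (SMC3, RAD21, STAG2, SMC2, SMC4 and NCAPG) and none was lower. Over all 19528 genes tested, 13.1% were higher and 5.26% lower at that threshold. None of the 10 passed after adjustment. By edgeR's quasi-likelihood test their adjusted p ran from 0.26 to 0.51. No gene in the whole table passed either, while 3580 had an unadjusted p under 0.05. Other tests called 16 (edgeR's likelihood ratio test), 1 (DESeq2) and 0 (limma voom) after adjustment. The median log2 fold change was 0.42 over the cohesin subunits and 0.44 over the condensin I subunits, against 0.02 over all genes tested. The subunits were chosen with earlier results of these data known, so these shares and medians only describe them. In bulk RNA, more cells in the phase of the cycle that uses these genes and more RNA per cell cannot be told apart.

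After the GC correction, none of the 10 subunits was higher at an unadjusted p under 0.05, beside 2.86% of all genes tested. The medians were then 0.08 for cohesin and 0.10 for condensin I, and 9 of the 10 log2 fold changes were still positive, beside 49.7% of all genes. Without vector control replicate 2, in contrast, 9 of the 10 were higher at an unadjusted p under 0.05, beside 22.8% of all genes. In that fit 7 of the 10 passed an adjusted p under 0.05 in edgeR, beside 19.1% of all genes in either direction. The count was 3 when GC0643 replicate 1 was left out (6.49% of all genes), 6 for GC0643 replicate 2 (10.2%), 2 for GC0643 replicate 3 (6.36%), 2 for vector control replicate 1 (4.14%) and 5 for vector control replicate 3 (7.71%). The share over all genes was thus lower in each of these fits too. RAD21 and NCAPG were among those higher whichever library was left out, with log2 fold changes of 0.32 to 0.67 and 0.38 to 0.69. The cohesin median was 0.25 without vector control replicate 3. With vector control replicate 2 left out and the GC correction applied, 2 of the 10 were higher at an unadjusted p under 0.05, beside 5.99% of all genes, and none passed the adjusted p.

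**Figure D1:**
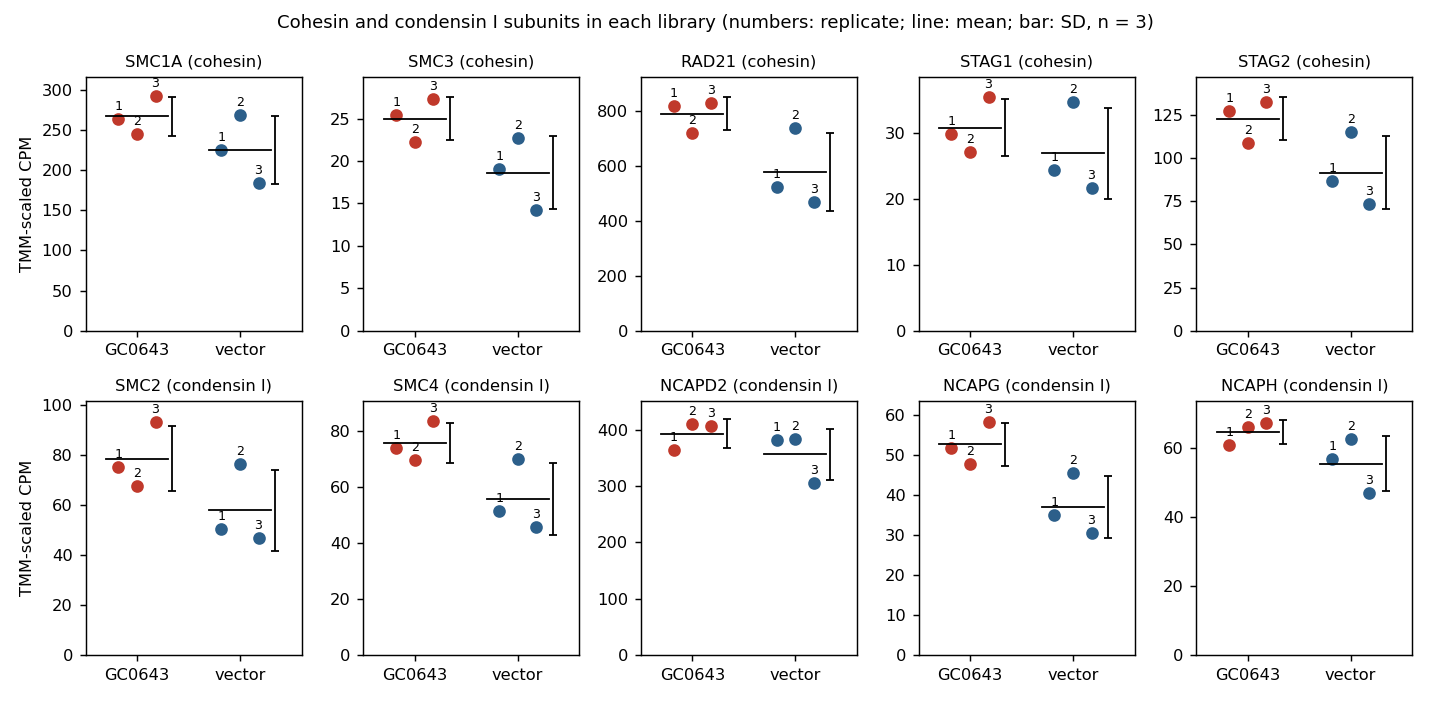
Level of each subunit in CPM (vertical axis, from 0) in the 3 libraries with GC0643 overexpression (red) and the 3 with vector control (blue); numbers are replicates, lines are means and bars are SD (n = 3). Vector control replicate 2 is the highest vector library for all 10 subunits, and NCAPG is the one subunit whose groups do not overlap.

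Among the cohesin subunits, RAD21, the kleisin that separase cuts at anaphase, was the most abundant. It lies on chromosome 8 of GRCh38 from 116845934 to 116874776, minus strand. RAD21 stood at 817, 719 and 829 CPM in GC0643 replicates 1 to 3 and at 523, 737 and 467 CPM in vector control replicates 1 to 3. The GC0643 libraries lay above vector control replicates 1 and 3, and vector control replicate 2 fell among them, so the groups overlap. The means were 788 ± 60.5 CPM (SD, n = 3) and 576 ± 142 CPM (SD, n = 3). The log2 fold change of RAD21 was 0.45 (SE 0.15, unadjusted p = 0.0084 and adjusted p = 0.26 from edgeR). After the GC correction it was 0.16 (unadjusted p = 0.091 from the edgeR fit).

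STAG2, the more abundant of the alternative HEAT-repeat subunits, is on chromosome X from 123960212 to 124422664 (plus strand). It stood at 127, 109 and 133 CPM with GC0643 overexpression and at 86.9, 115 and 73.3 CPM with vector control. The order of the libraries was that of RAD21, with vector control replicate 2 above GC0643 replicate 2. STAG2 had a log2 fold change of 0.42 (SE 0.16, unadjusted p = 0.016 from edgeR) and 0.07 after the GC correction. STAG1, on chromosome 3 from 136336236 to 136752403 (minus strand), stood at 29.9, 27.1 and 35.6 CPM with GC0643 overexpression and at 24.4, 34.7 and 21.7 CPM with vector control. Vector control replicate 2 was above 2 of the 3 GC0643 libraries. The log2 fold change of STAG1 was 0.20 (SE 0.18, unadjusted p = 0.28 from edgeR), and its sign turned to −0.10 after the GC correction. It was the one subunit that changed sign.

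The paired ATPases of cohesin stood at different levels. SMC3, on chromosome 10 from 110567684 to 110606048 (plus strand), stood at 25.4, 22.2 and 27.3 CPM with GC0643 overexpression and 19.1, 22.7 and 14.2 CPM in the vector libraries. Its log2 fold change was 0.42 (SE 0.17, unadjusted p = 0.026 from edgeR) and 0.08 after the GC correction. SMC1A, on chromosome X from 53374149 to 53422728 (minus strand), was at 264, 245 and 293 CPM against 225, 269 and 184 CPM. Its log2 fold change was 0.24 (SE 0.14, unadjusted p = 0.10 from edgeR) and 0.13 after the GC correction. Both genes overlapped between groups through vector control replicate 2. The GC content of the canonical transcript is 37.3% for SMC3 and 47.0% for SMC1A.

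Ratios of subunits within a library need no scaling between libraries, and 3 of them were compared with an exact two-sided permutation test, whose smallest possible p with 3 against 3 libraries is 0.1. Expressed per length of transcript, STAG1 made up 19.3%, 20.2% and 21.4% of the STAG1 and STAG2 sum in the GC0643 libraries and 22.2%, 23.5% and 23.2% in the vector libraries. As counted, the groups did not overlap, vector control replicate 2 included. How many other pairs of genes separate in this way was not counted. The difference in log2 count ratio was −0.23 (exact permutation p = 0.1, adjusted p = 0.15 over the 3 ratios). After the GC correction it was −0.17 (exact permutation p = 0.2), and the groups overlapped, with GC0643 replicate 3 above vector control replicate 1. The SMC1A to SMC3 count ratio was lower in all 3 GC0643 libraries, by −0.19 on the log2 scale (exact permutation p = 0.1, adjusted p = 0.15). For this ratio too, the share of other pairs that separate was not counted. After the GC correction the difference was 0.05 (exact permutation p = 0.7). The SMC2 to SMC4 ratio differed by 0.00 (exact permutation p = 1.0), with a log2 count ratio of 0.05 ± 0.10 (SD, n = 3) in the GC0643 libraries and 0.04 ± 0.08 (SD, n = 3) in the vector libraries. The STAG1 ratio carries a limit. Exons of PCCB, a subunit of a mitochondrial carboxylase, cover 1661 of the 6062 bases of the canonical STAG1 transcript on the opposite strand. The counting options are stated for tumour tissue libraries of the study and not for these. They set no strand and count a read for every gene it overlaps, so, if they were used here, reads of the shared bases are in both genes. PCCB stood at 64.0 and 63.8 CPM in the 2 groups, and with its counts added to those of STAG1 the log2 fold change was 0.07.

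NCAPG, a HEAT-repeat subunit of condensin I on chromosome 4 from 17810979 to 17844865 (plus strand), had the largest log2 fold change of the 10. It stood at 51.8, 47.8 and 58.3 CPM with GC0643 overexpression and at 35.0, 45.6 and 30.4 CPM with vector control. All 3 GC0643 libraries were above all 3 vector libraries, which holds for 11.8% of all genes tested. The log2 fold change was 0.51 (SE 0.16, unadjusted p = 0.0053 and adjusted p = 0.26 from edgeR). After the GC correction it was 0.18 (unadjusted p = 0.065 from the edgeR fit). Exons of LCORL on the opposite strand cover 1634 of its 4587 bases. LCORL, at 19.2 and 12.3 CPM, had a log2 fold change of 0.64, and the sum of both genes one of 0.54.

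The ATPases of condensin had like levels and fold changes. SMC2, on chromosome 9 from 104094260 to 104141419 (plus strand), stood at 75.1, 67.4 and 93.0 CPM with GC0643 overexpression and at 50.4, 76.5 and 46.6 CPM with vector control. SMC4, on chromosome 3 from 160399274 to 160434954 (plus strand), stood at 73.9, 69.5 and 83.4 CPM against 51.5, 70.0 and 45.6 CPM. In both, vector control replicate 2 lay among the GC0643 libraries. Each had a log2 fold change of 0.44 (unadjusted p = 0.026 for SMC2 and 0.013 for SMC4 from edgeR), and after the GC correction 0.10 and 0.09. Exons of TRIM59 on the opposite strand cover 1552 of the 5116 bases of SMC4. TRIM59 itself had a log2 fold change of 0.60, and the sum of both genes one of 0.47.

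Of the condensin I subunits, NCAPD2 and NCAPH had the smallest fold changes as counted. NCAPD2, on chromosome 12 from 6493356 to 6531955 (plus strand), stood at 363, 409 and 406 CPM with GC0643 overexpression and 382, 383 and 304 CPM with vector control. Its groups overlapped, and 2 of its vector libraries were above GC0643 replicate 1. The log2 fold change of NCAPD2 was 0.14 (SE 0.12, unadjusted p = 0.27 from edgeR) and 0.18 after the GC correction, so it was the one subunit with a larger value after it. NCAPH, the kleisin of condensin I on chromosome 2 from 96335766 to 96377091 (plus strand), stood at 60.8, 66.3 and 67.4 CPM against 56.9, 62.6 and 46.9 CPM. Its log2 fold change was 0.22 (SE 0.14, unadjusted p = 0.12 from edgeR) and 0.08 after the GC correction.

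**Figure D2:**
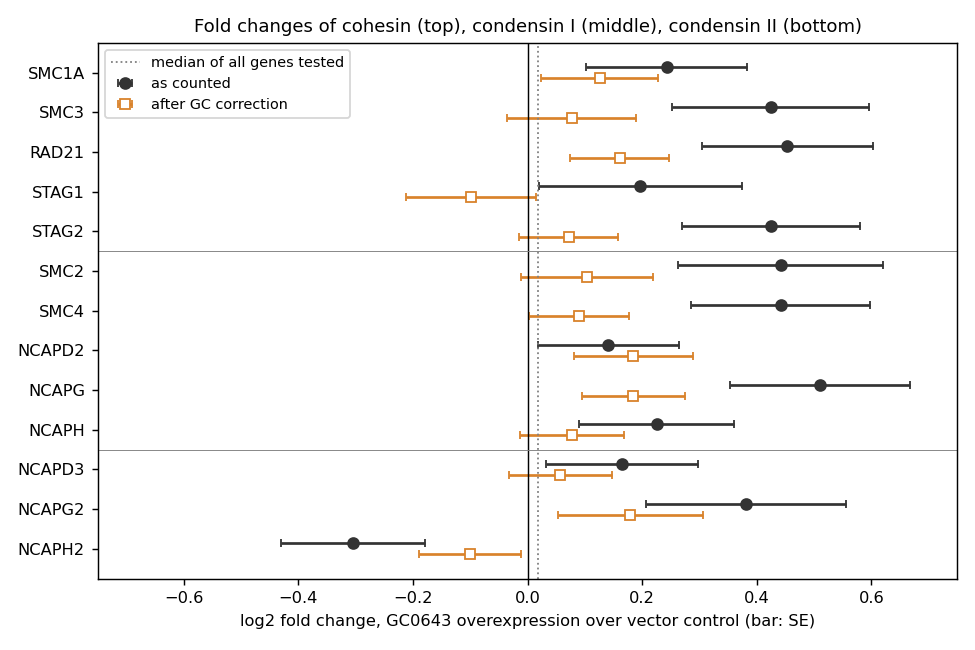
Log2 fold change of GC0643 overexpression over vector control (horizontal axis, bars are SE) for the subunits of cohesin, condensin I and condensin II, as counted (filled circles) and after the GC correction (open squares). As counted, 12 of the 13 genes lie above 0, and after the correction all lie between −0.10 and 0.18.

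The promoters of the condensin I genes are shown because 4 of these 5 genes hold the same short motif in a promoter. TTTGAA is the core of the cell cycle genes homology region (CHR), an element of genes that peak in G2 and mitosis. It was searched on both strands of RefSeq promoters (GRCh38.p14, 250 bases before to 50 bases after the start). Of the 10 subunits, 9 are in that table, with 14 promoters. The windows of 30 bases below are written on the strand of the gene, with the motif in capitals, which read TTCAAA where it lies on the other strand.
NCAPG, chr4:17810932-17810961, plus strand: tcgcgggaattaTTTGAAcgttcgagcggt
SMC2, chr9:104094294-104094323, plus strand: ctcgcgccgaaaTTCAAAggaataaatagt
SMC4, chr3:160399563-160399592, plus strand: gccgcactttttTTCAAAttagtggatccc
NCAPD2, chr12:6493945-6493974, plus strand: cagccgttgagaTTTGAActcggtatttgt
SMC3, chr10:110567532-110567561, plus strand: cagaattctagaTTCAAAagaaatccacca

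Relative to the annotated start, the first base of the motif was at −35 in NCAPG, −3 in SMC2, −75 in SMC4, −145 in NCAPD2 and −151 in SMC3. TTTGAA was thus in 5 of the 14 promoters of the subunits and in 15.2% of all 35116 promoters of the table. SMC2 and SMC4 each have a further promoter without it, and a share per gene was not computed. The variant TTCGAA was in none of the 14 and in 1.45% of all. CCAAT, the box bound by NF-Y, was in 5 of the 14 promoters, those of NCAPH, STAG1, NCAPD2 and STAG2, and in 34.6% of all. NCAPD2 held 4 copies of it. The E2F motifs TTTCCCGC (STAG1 and SMC1A) and TTTGGCGC (STAG2) were in 2 and 1 of the 14, and in 1.63% and 0.652% of all. No match of one motif overlapped a match of another. The genes with TTTGAA had log2 fold changes from 0.14 (NCAPD2) to 0.51 (NCAPG), and the searched subunits without it from 0.20 (STAG1) to 0.42 (STAG2). A match says only that the letters are present.

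The subunits of condensin II, which share SMC2 and SMC4, had fold changes of both signs. NCAPG2, the counterpart of NCAPG, averaged 125 ± 13.9 CPM (SD, n = 3) in the GC0643 libraries and 96.1 ± 28.2 CPM (SD, n = 3) in the vector libraries. Its log2 fold change was 0.38 (unadjusted p = 0.046 from edgeR's quasi-likelihood test). For NCAPG2 it was 0.18 after the GC correction (unadjusted p = 0.18 from edgeR) and 0.19 without vector control replicate 3, and only leaving out GC0643 replicate 2 or vector control replicate 2 kept p under 0.05 among the fits with 1 library left out. NCAPD3 had a log2 fold change of 0.16 (unadjusted p = 0.24). NCAPH2, the kleisin, stood at 98.8, 125 and 120 CPM with GC0643 overexpression and at 145, 131 and 149 CPM with vector control. All its GC0643 libraries were below all its vector libraries, which holds for 10.5% of all genes tested. The log2 fold change of NCAPH2 was −0.30 (SE 0.13, unadjusted p = 0.029 and adjusted p = 0.26 from edgeR), and −0.10 after the GC correction. Its transcript has a GC content of 61.3%, the highest of the 13 condensin and cohesin genes. Per length of transcript, the NCAPH to NCAPH2 ratio ran from 0.29 to 0.34 in the GC0643 libraries and from 0.17 to 0.26 in the vector libraries, without overlap. Its ranges were closer after the GC correction, 0.27 to 0.29 and 0.23 to 0.25. The NCAPD2 to NCAPD3 ratio (4.12 to 4.93 against 4.15 to 4.98) and the NCAPG to NCAPG2 ratio (0.37 to 0.38 against 0.32 to 0.38) overlapped. No test was run on these ratios, and how many other pairs of genes separate between the groups was not counted.

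Levels were compared between genes only as CPM per kb of the canonical transcript. RAD21 was the highest at 215 ± 16.5 CPM per kb (SD, n = 3) with GC0643 overexpression, then NCAPD2 at 81.4 ± 5.33 and SMC1A at 27.5 ± 2.49. STAG2 followed at 19.9 ± 2.01, SMC4 at 14.8 ± 1.39, SMC2 at 13.2 ± 2.22, NCAPH at 10.7 ± 0.58 and NCAPG at 11.5 ± 1.16, in the order of the mean over both groups. STAG1 at 5.09 ± 0.71 and SMC3 at 4.52 ± 0.46 were the lowest. By this measure, the subunits of 1 ring were not at equal RNA levels. It uses 1 transcript per gene and is not corrected for GC content. Bases shared with genes on the opposite strand may also add reads to STAG1, NCAPG and SMC4. The SMC1A to SMC3 ratio per length was 5.91 to 6.27 in the GC0643 libraries and 6.72 to 7.38 in the vector libraries. SMC4 and SMC2, in contrast, were close (ratio of SMC2 to SMC4 0.84 to 0.96), and their ranges overlapped in both groups. NCAPH and NCAPG overlapped in both groups too, as did SMC2 and NCAPG, and STAG1 and SMC3. STAG2 and SMC4, and SMC2 and NCAPH, overlapped in the vector libraries alone. The other neighbours in this order did not overlap in either group.

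**Figure D3:**
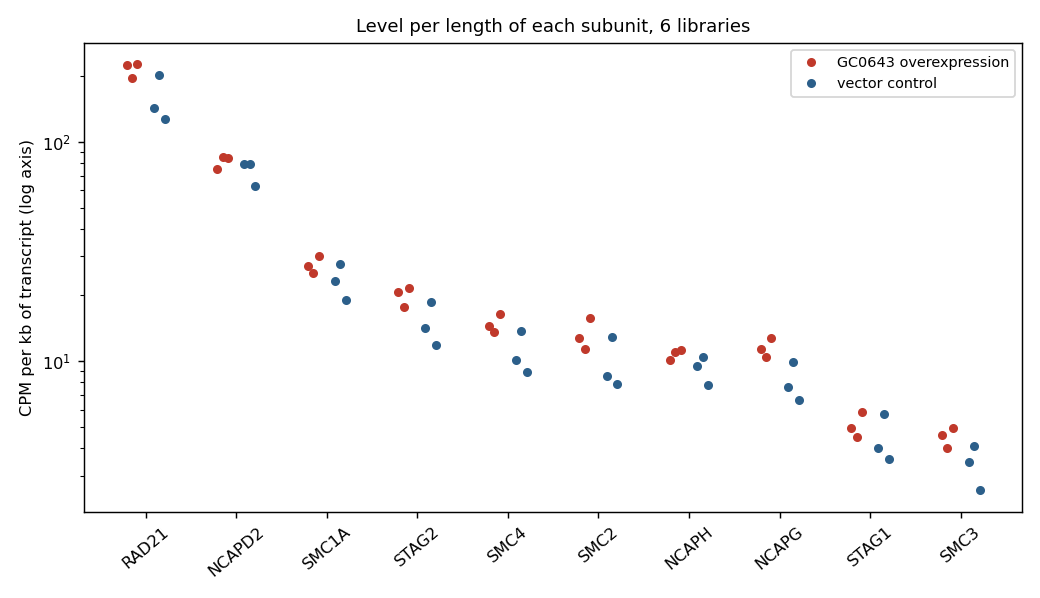
CPM per kb of canonical transcript (log axis) of the 10 subunits, ordered by level, in 3 libraries with GC0643 overexpression (red) and 3 with vector control (blue), each point 1 library. RAD21 is highest and SMC3 lowest, and the order from RAD21 to STAG2 is the same in all 6 libraries.

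The pattern over libraries was shared by the subunits. Vector control replicate 2 was the highest of the vector libraries for all 10 subunits and was above the lowest GC0643 library for 9, all but NCAPG. Vector control replicate 3 was the lowest library of its group for all 10. Vector control replicates 1 and 3 were below every GC0643 library for 9 of 10, all but NCAPD2. For these placements the shares over all genes tested were not computed, so they cannot be called particular to the subunits. Set against the 6-library mean, the median cohesin subunit lay at 0.25, 0.05 and 0.32 (log2) in GC0643 replicates 1 to 3 and at −0.22, 0.14 and −0.51 in vector control replicates 1 to 3. The median condensin I subunit lay at 0.18, 0.13 and 0.38 and at −0.32, 0.07 and −0.50. GC0643 replicate 2 and vector control replicate 2, which had a similar rho with GC content (−0.28 and −0.25), were close in both medians. After the GC correction the cohesin medians were 0.03, −0.04 and 0.13 in the GC0643 libraries and 0.00, 0.07 and −0.20 in the vector libraries. What sets vector control replicates 1 and 3 apart from the others was not tested.

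Fold changes fell with GC content over all genes tested (Spearman's rho = −0.67 across genes, which share the 6 libraries), and over the 10 subunits rho was −0.52. The 6 subunits higher at an unadjusted p under 0.05 have a GC content between 36.6% (STAG2) and 40.3% (RAD21). STAG1, at 40.2%, is the exception among the subunits in this range, with a log2 fold change of 0.20. Those of SMC1A, NCAPH and NCAPD2 run from 46.1% to 51.6%. After the correction rho over the 10 subunits was 0.54.

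**Figure D4:**
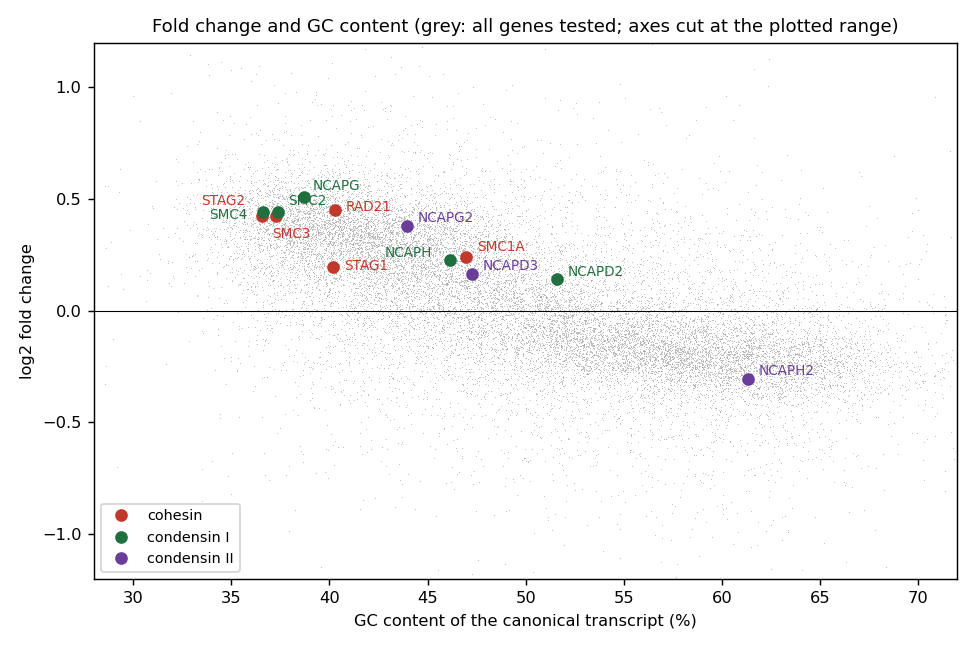
Log2 fold change (vertical axis) against the GC content of the canonical transcript in percent (horizontal axis) for all genes tested (grey, 19261 of 19401 genes lie inside the axes) and for the subunits of cohesin (red), condensin I (green) and condensin II (purple). The subunits lie along the slope of the grey cloud, from NCAPG at 0.51 to NCAPH2 at −0.30.

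Among 14 cohesin regulators the log2 fold change was positive in 11 and negative in 3, with a median of 0.29. Higher at an unadjusted p under 0.05 were 4, and none was lower, beside 13.1% and 5.26% of all genes tested (51.9% positive). SGO2, which protects cohesin at centromeres, stood at 24.1 ± 1.34 CPM (SD, n = 3) against 15.6 ± 4.36 CPM (SD, n = 3). Its log2 fold change was 0.63 (unadjusted p = 0.0033 from edgeR), and 0.26 after the GC correction (unadjusted p = 0.048 from the edgeR fit). ESCO1, an acetyltransferase of SMC3, had a log2 fold change of 0.50, and PDS5B, which binds cohesin and regulates its release, one of 0.44. After the GC correction the median of the regulators was 0.06. SGO2 was then the one regulator with an unadjusted p under 0.05, beside 2.86% of all genes tested that were higher at that threshold.

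Of the 4 germ-line cohesin genes, SMC1B reached 5 counts and RAD21L1 4 counts in their highest libraries, too few to be tested. STAG3, the meiotic counterpart of STAG1 and STAG2, stood at 19.2 and 19.8 CPM in the 2 groups, with a log2 fold change of −0.05 (unadjusted p = 0.75 from edgeR), and REC8, the meiotic kleisin, had one of 0.24 (unadjusted p = 0.34 from edgeR). Of 9 genes of the SMC5/6 complex, which acts in DNA repair, 8 were tested. The log2 fold change was positive in 6 of these, beside 51.9% of all genes, with a median of 0.29. The 3 genes higher at an unadjusted p under 0.05, beside 13.1% of all genes, were SLF1 (0.58), SMC6 (0.44) and NSMCE2 (0.29), and after the GC correction none of the 3 passed. No gene of the complex was lower at that threshold before the correction. NSMCE3, named after its values were seen, had a log2 fold change of −0.32 after the correction (unadjusted p = 0.029 from edgeR) and −0.04 before it. With the correction, 688 of the 19528 genes tested were lower at an unadjusted p under 0.05.

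Of 12 partners of condensin on mitotic chromosomes, 8 had a positive log2 fold change and 3 were higher at an unadjusted p under 0.05, with a median of 0.11. The shares over all genes were 51.9% and 13.1%. TOP2A, the topoisomerase of the mitotic chromosome axis, stood at 335 ± 52.9 CPM (SD, n = 3) against 227 ± 70.9 CPM (SD, n = 3), a log2 fold change of 0.57 (unadjusted p = 0.0074 from edgeR). CDK1, the kinase that starts mitosis, had a log2 fold change of 0.54, and CCNB1, its cyclin, one of 0.34. The 4 with a negative value were BIRC5 (−0.12), AURKB (−0.11), PLK1 (−0.10) and AKAP8 (−0.03), none of them past that threshold. After the GC correction the 3 values were 0.26, 0.18 and 0.09, and none of the 12 passed an unadjusted p under 0.05. Of all genes tested, 2.86% were then higher at that threshold.

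**Figure D5:**
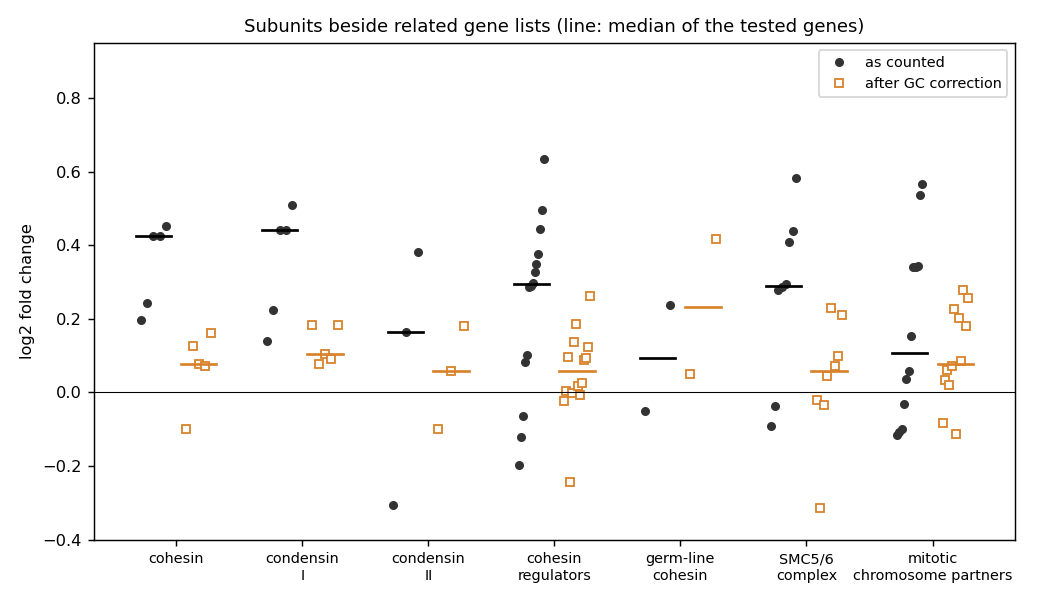
Log2 fold change (vertical axis) of each tested gene of cohesin, condensin I, condensin II, the cohesin regulators, germ-line cohesin, the SMC5/6 complex and partners of condensin, as counted (filled circles) and after the GC correction (open squares), with lines at the medians. The medians of cohesin (0.42) and condensin I (0.44) are the highest as counted, and after the correction they are at 0.08 and 0.10. Germ-line cohesin, with 2 genes tested, is then highest at 0.23, and the partners of condensin are at 0.08.

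Genes whose log2 CPM over the 6 libraries lay closest to the mean profile of the cohesin subunits were PSME4, CLMP and CLTC, at root mean square distances of 0.02 (log2) each. The cohesin subunits themselves lay at 0.04 (STAG2) to 0.09 (STAG1) from that mean. Closest to the condensin I profile were COPS8, RARS2 and ETFDH, at 0.03 each, with the condensin I subunits at 0.07 (SMC4) to 0.16 (NCAPD2). The GC content of the 6 neighbours ran from 37.9% (COPS8) to 44.6% (CLMP), and their log2 fold changes from 0.32 to 0.38. Of other genes whose exons overlap those of a subunit, UTP23 at the RAD21 locus had a log2 fold change of 0.43 (unadjusted p = 0.024 from edgeR) and RAD21-AS1 one of 0.14. MIR3610, a microRNA gene that overlaps an exon of RAD21 on the same strand, was at 0.08. IFT80 and TRIM59 at SMC4 were at 0.36 and 0.60, TENM1 at STAG2 was at 0.34, and RIBC1 at SMC1A and MRPL51 at NCAPD2 were at −0.05 and −0.01. The overlaps of PCCB, LCORL and TRIM59 are the longest of these within the canonical transcripts of the subunits.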

How the data were processed

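Total RNA of 6 HGC-27 libraries was prepared with the NEBNext Ultra kit. The authors' processing notes name Trimmomatic 0.32, HISAT2 2.1.0, GRCh38 and featureCounts 2.0.0, and the deposited values are raw read counts per Ensembl gene, whole numbers without normalization. The study's Methods give featureCounts options for its tumour tissue libraries, with the same tool versions (paired reads, exons, reads counted for every overlapping gene, no strand option). Whether they hold for the HGC-27 libraries is not stated. Of 58825 genes, 58472 were matched by ID to GENCODE version 44, the source of coordinates and of canonical transcripts, whose length and GC content were computed.

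After filterByExpr and TMM scaling, edgeR 4.0.16 in R 4.3.3 fitted its quasi-likelihood model with group as the single term. Benjamini-Hochberg adjustment ran over all 19528 genes tested. CPM are TMM-scaled. The GC correction was a loess of each library's log2 CPM on GC content (span 0.3, prior count 1), entered as an offset. The subunits and gene lists were chosen with earlier results of these data known, so no list was tested as a set. Named are the 10 subunits, condensin II, up to 3 genes of each other list with the smallest p, genes with exons overlapping a subunit (mean count of at least 10), and the 3 nearest profiles per complex. SMC1B and RAD21L1 (untested), NSMCE3 and the mitotic partners with negative values were named after their values were seen. Alternatives used DESeq2 1.42.0, limma 3.58.1, other scalings and filters, a length correction, a replicate block and each library left out. The code was tested on simulated data. Intervals of counting error were not needed, and no library was a duplicate of another (chi-square of 4.69 per gene or more between any pair). Figures used Python with matplotlib.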

Additional observations from a re-analysis of the deposited data

How the results depend on the processing

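The number of genes past an adjusted p of 0.05 was 0 as reported, 16 with the likelihood ratio test, 1 with DESeq2, 1 with DESeq2's size factors, 224 with no filter on low counts, 24 with a replicate block and 1 with the replicate block and GC correction together. It ran from 0 to 3811 when 1 library was left out, the highest without vector control replicate 2. The number of subunits higher at an unadjusted p under 0.05 was 6 as reported, beside 13.1% of all genes tested. It was 0 with the GC correction (2.86% of all genes) and 0 with the replicate block and GC correction (363 of 19528 genes). It was 3 with the length correction (1651 of 19528 genes) and 2 without vector control replicate 2 with GC correction (5.99% of all genes). With 1 library left out, it was lowest at 2, without GC0643 replicate 3 (6.36%) or vector control replicate 1 (4.14%). It was highest at 9 without vector control replicate 2 (22.8%), and was 3 without GC0643 replicate 1 (6.49%). The median of the cohesin subunits was 0.077 with the GC correction, 0.081 with block and GC correction and 0.12 without vector control replicate 2 with GC correction, and that of condensin I was 0.10, 0.10 and 0.21. Leaving out 1 library moved them from 0.25 to 0.59 and from 0.30 to 0.64. STAG1 turned to −0.10 with the GC correction, −0.10 with block and GC correction, and −0.0066 without vector control replicate 2 with GC correction. The SMC1A to SMC3 difference turned to 0.049 with the GC correction and ran from −0.21 to −0.14 when 1 library was left out. The STAG1 to STAG2 difference ran from −0.28 to −0.18, and that of SMC2 to SMC4 from −0.054 to 0.047. The cause of these changes was not tested.

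The deviations of same-numbered libraries correlated at −0.21, −0.03 and −0.31, and those of differently numbered libraries at −0.17 to 0.30. No pairing by replicate number was seen. Deviations within a group of 3 are tied to each other, so these values cannot exclude it. With the replicate block the subunits higher at an unadjusted p under 0.05 were 6, beside 1944 of the 19528 genes tested. The ratio differences were then −0.23, −0.19 and 0.00. Summing with an overlapping gene was chosen after seeing the data, and would count shared reads more than once if reads were given to every overlapping gene. With 3 libraries per group, the common biological coefficient of variation over all genes tested was 14.8%. Whether the spread between libraries or the depth limits these comparisons more was not tested.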
